A study of Mus musculus with 12 samples.

Results

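The transcription factor p53 is held at a low level by the ubiquitin ligase Mdm2 and is stabilised when DNA is damaged or the cell is otherwise stressed. It then binds paired copies of a decamer motif near its target genes, whose products stop the cell cycle, repair or limit damage, trigger apoptosis, or feed back on p53 itself. Adult cardiomyocytes rarely divide, so in the heart these genes are known more as reporters of stress than as brakes on proliferation. Direct targets of p53 were examined in the left ventricle of mice whose cardiomyocytes lack Gch1, the gene of GTP cyclohydrolase 1, the rate-limiting enzyme of tetrahydrobiopterin (BH4) synthesis. The 10 genes were Cdkn1a for arrest, Ccng1 and Mdm2 for feedback, Bax, Aen, Eda2r, Phlda3, Zmat3 and Trp53inp1 for death and survival, and Sesn1 for metabolism. They were chosen as named targets, with earlier results of these data known. Each was found in the count table by the Ensembl identifier that carries its symbol in GENCODE M21. All 10 were among the 26921 genes of the table and among the 11225 that passed the filter on low counts and were tested.

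RNA-seq was performed on left ventricular tissue of 16-week-old mice, with 6 WT and 6 cmGch1 KO libraries. Mice of both genotypes carried floxed Gch1 on both alleles (Gch1 flox/flox). The cmGch1 KO mice also carried a heterozygous Cre recombinase transgene driven in cardiomyocytes by the promoter of α-myosin heavy chain (α-MHC). Their WT controls carried no Cre, so in these libraries an effect of Cre itself and an effect of the loss of Gch1 cannot be told apart. The tissue was whole ventricle, in which cells other than cardiomyocytes keep Gch1. The Gch1 counts cover the whole gene, exons outside the floxed part included. Gch1, given in cpm, read counts relative to library depth scaled by TMM factors, ran from 9.32 through a median of 10.8 to 12.2 cpm in WT and from 3.94 through 5.58 to 6.35 cpm in cmGch1 KO. Its groups did not overlap, and it fell by 0.96 on the log2 scale (SE 0.11, edgeR adjusted p = 0.000688), and by 0.99 without cmGch1 KO replicates 2 and 3. Depth ranged from 19921398 to 37917806 counts per library. The cmGch1 KO replicates 2 and 3 stood apart from the other libraries. Xist, the RNA of the inactive X chromosome, was at 87.1 and 99.6 cpm in them and at most 0.235 cpm elsewhere, and mitochondrial genes held 14.9% and 16.1% of their counts against 18.3% to 22.9% elsewhere. The labels give no sex, and the calls printed for single genes are also given without these libraries.

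The promoters of 3 of the genes are shown because they differ in whether the motif that p53 binds was found and in the size of the change described afterwards. They are the 250 bases before the transcription start in RefSeq, assembly GRCm38.p6, read 5′ to 3′ on the strand of the gene. The 3 genes were picked with their values known, and a relation of motif to change was not tested. Capitals mark matches to the p53 consensus decamer, whose core is a C, 2 bases that are A or T, and a G.
Cdkn1a, chr17:29090729-29090978, plus strand: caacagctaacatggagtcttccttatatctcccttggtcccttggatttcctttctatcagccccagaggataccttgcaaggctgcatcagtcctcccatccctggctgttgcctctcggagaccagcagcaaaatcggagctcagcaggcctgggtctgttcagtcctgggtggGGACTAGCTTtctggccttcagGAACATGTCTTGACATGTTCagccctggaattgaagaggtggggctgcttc
Phlda3, chr1:135765835-135766084, plus strand: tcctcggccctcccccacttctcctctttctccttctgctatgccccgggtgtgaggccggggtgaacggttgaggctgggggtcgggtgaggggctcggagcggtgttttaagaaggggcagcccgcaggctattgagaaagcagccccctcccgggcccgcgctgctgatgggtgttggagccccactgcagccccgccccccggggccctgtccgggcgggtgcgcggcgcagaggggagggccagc
Eda2r, chrX:97377210-97377459, minus strand: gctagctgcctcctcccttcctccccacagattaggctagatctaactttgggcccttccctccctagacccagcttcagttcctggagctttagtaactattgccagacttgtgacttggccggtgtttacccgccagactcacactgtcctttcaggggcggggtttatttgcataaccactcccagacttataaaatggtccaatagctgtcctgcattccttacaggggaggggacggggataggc
The Cdkn1a promoter holds a full site of 20 bases, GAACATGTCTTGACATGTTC, which is 2 adjoining decamers with 1 mismatch to the consensus. It lies at chr17:29090928-29090947, beginning 51 bases before the start, and a separate decamer, GGACTAGCTT, begins 73 bases before the start. A second Cdkn1a window, at a start farther downstream (chr17:29093519-29093818), held no match, and no whole decamer was found in the windows of Phlda3 and Eda2r. The searched window of Phlda3 goes past the printed bases and ends, at chr1:135766134, in gaacatgt. These letters fit the beginning of a decamer, core included, that is cut off by the window edge. Whether the next bases complete it could not be checked, so the lack of a decamer near the Phlda3 start was not settled.

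The search covered both strands of windows of 300 bases, which add the 50 bases from the start to those printed, and allowed a full site at most 2 mismatches outside the cores. RefSeq windows were at hand for 8 of the 10 genes (11 windows, since some genes have more than 1 start), and those of Zmat3 and Trp53inp1 were not analysed here. Cdkn1a alone of the 8 held a full site, as did 27 of 17492 protein-coding genes (0.154%), Cdkn1a included. A single decamer was found in 6 of the 8, and in 1493 of the protein-coding genes (8.54%). Beside Cdkn1a these were Bax with AGGCAAGCTT, Aen with GGGCTTGTCC, Sesn1 with AAGCTTGTTT, Mdm2 with GAACTTGCCT and Ccng1 with GGGCAAGCCT. A match is only a run of letters in this window, and a site farther away or inside the gene was not searched for.

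Of the 10 targets, 3 rose in cmGch1 KO hearts: Phlda3, Eda2r and Aen. None fell. Cdkn1a, Mdm2, Bax, Ccng1, Zmat3, Trp53inp1 and Sesn1 did not pass the threshold, a false discovery rate (FDR) of 0.05 over all tested genes in the quasi-likelihood test of edgeR. Across all tested genes 0.677% were called higher and 0.445% lower. At an unadjusted p under 0.05, 5 targets were higher and 1 lower, where 7.01% and 4.51% of all tested genes were. In 3 targets every cmGch1 KO library exceeded every WT library, a pattern seen in 1.07% of tested genes. No target had every cmGch1 KO library below every WT library, against 0.802% of tested genes. The log2 fold change was above 0 for 8 targets and below 0 for 2, with a median of 0.29, whereas the median of all tested genes was −0.01 and 46.7% of them lay above 0. Because the targets were chosen with earlier results of these data known, these shares are a description and not a test of the set. Since the RNA came from whole tissue, fewer cells of a type and less RNA per cell cannot be told apart in any of these values.

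**Figure D1:**
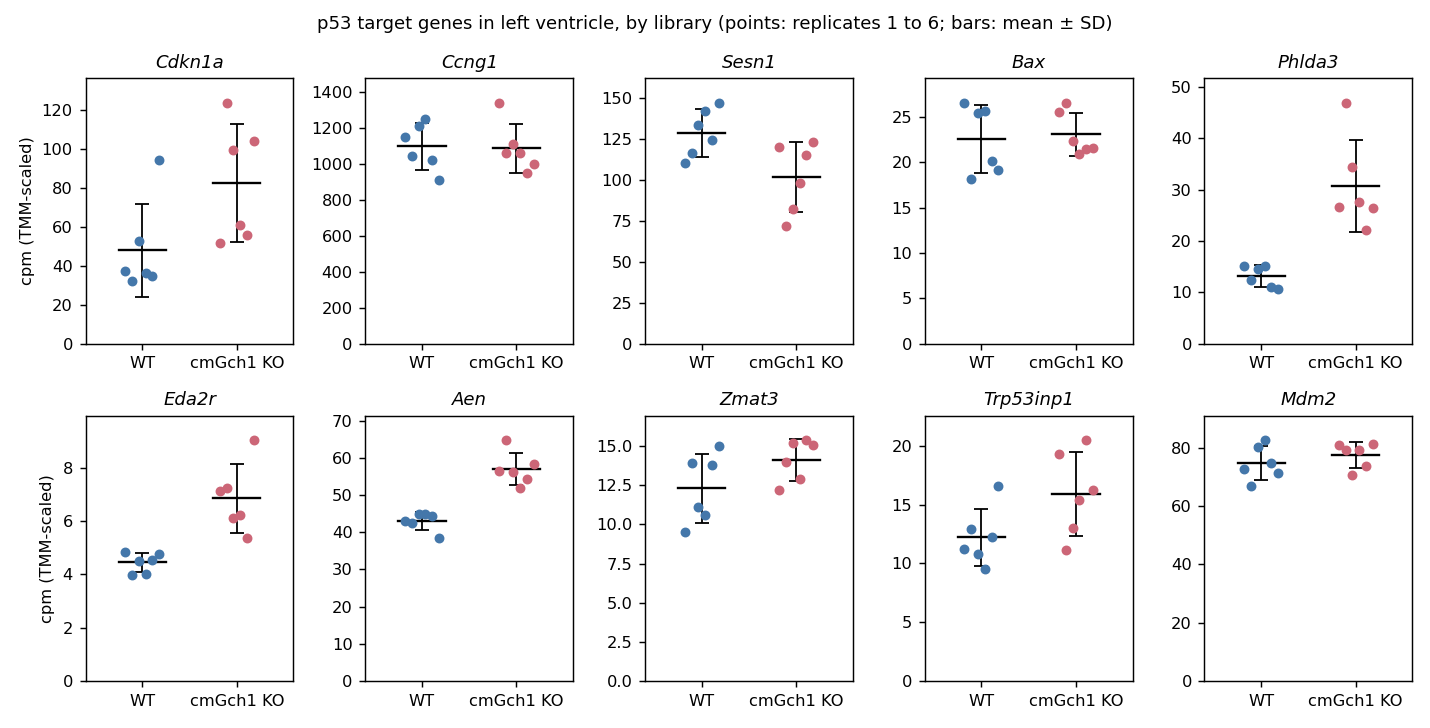
Expression of the 10 p53 target genes in each library, in cpm scaled by TMM factors, with a separate linear axis from 0 for each gene; points are the 6 libraries of each genotype and bars are mean ± SD. The points of Phlda3, Eda2r and Aen do not overlap between genotypes, and WT replicate 6 lies above the other WT libraries for Cdkn1a at 94.5 cpm.

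The arrest gene Cdkn1a encodes p21, an inhibitor of cyclin-dependent kinases. It lies at chr17:29090976-29100727 on the plus strand of GRCm38. Its WT libraries ran from 32.3 through a median of 36.8 to 94.5 cpm, and its cmGch1 KO libraries from 51.7 through 80.3 to 124 cpm. The groups overlapped: WT replicate 6 stood far above the other WT libraries, 3 cmGch1 KO libraries lay above it, and the lowest cmGch1 KO library was below the next highest WT library, at 52.8 cpm. The mean was 48.0 ± 23.9 cpm for WT and 82.7 ± 30.4 cpm for cmGch1 KO (SD, n = 6 each, exact permutation p = 0.0519). The log2 fold change of 0.79 (SE 0.29, 95% interval 0.17 to 1.41) missed the threshold with an edgeR adjusted p of 0.267. Without WT replicate 6 it was 1.09 and passed, with an edgeR adjusted p of 0.0463. Without cmGch1 KO replicates 2 and 3, which held 124 and 99.6 cpm, it was 0.51 with an adjusted p of 0.860.

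Phlda3, a small pleckstrin-homology protein that competes with the kinase Akt for membrane lipids and so restrains survival signalling, had the largest difference of the 10. The gene is on chr1:135766119-135769136, plus strand. It ran from 10.6 through 13.5 to 15.2 cpm in WT and from 22.2 through 27.1 to 47.0 cpm in cmGch1 KO, so that its lowest cmGch1 KO library was well above its highest WT library. The mean rose from 13.2 ± 2.10 to 30.7 ± 8.88 cpm, a 2.33-fold change in the fit (log2 1.22, SE 0.17, edgeR adjusted p = 0.00227). The exact permutation test gave p = 0.00216, the smallest that 6 against 6 libraries allow. By the size of its rise Phlda3 ranked 9 among the tested genes, and 0.134% of them had a log2 fold change at least as large in either direction. The call held in all 12 fits that left out a library. Replicate 2 gave the highest cmGch1 KO value, and without replicates 2 and 3 the log2 fold change was 0.97 (edgeR adjusted p = 0.00487).

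Eda2r encodes a receptor of the tumour necrosis factor receptor family that binds the A2 form of ectodysplasin. It is X-linked, at chrX:97333840-97377216 on the minus strand, and was the least expressed of the 10, with 104 to 326 counts per library. Its WT libraries lay close together, from 3.99 through 4.52 to 4.83 cpm, and all cmGch1 KO libraries were above them, from 5.36 through 6.66 to 9.04 cpm. The rise was 1.55-fold, from 4.44 ± 0.361 to 6.85 ± 1.28 cpm (log2 0.63, SE 0.12, edgeR adjusted p = 0.0237, exact permutation p = 0.00216). The call was near the threshold: it was lost in 5 of the 12 fits that left out a library (WT replicates 2, 3, 4 and 5 and cmGch1 KO replicate 2), with edgeR adjusted p from 0.0581 to 0.0655. Without both libraries of high Xist the log2 fold change was 0.65 (adjusted p = 0.0940). With sex-linked expression as a covariate it was 0.65 (adjusted p = 0.0684). The high-Xist libraries had 7.25 and 6.10 cpm, inside the range of the other cmGch1 KO libraries. The ligand gene Eda had a WT mean of 3.07 ± 0.387 cpm and a cmGch1 KO mean of 3.54 ± 0.395 cpm (log2 fold change 0.21, SE 0.12, edgeR adjusted p = 0.542). Edar, the receptor of the A1 form, and its adaptor Edaradd were below the filter, with WT means of 0.553 and 0.107 cpm and cmGch1 KO means of 0.619 and 0.118 cpm.

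Aen, an exonuclease that digests DNA during apoptosis, lies at chr7:78895854-78911209 on the plus strand. Its values were tight in both genotypes, from 38.5 through 43.7 to 45.0 cpm in WT and from 52.0 through 56.3 to 64.9 cpm in cmGch1 KO, and the groups were separate. The mean rose 1.33-fold, from 43.0 ± 2.43 to 57.1 ± 4.43 cpm (log2 0.41, SE 0.07, edgeR adjusted p = 0.00814, exact permutation p = 0.00216). WT replicate 6, which was high for Cdkn1a, was the lowest WT library for Aen. The call held in all 12 fits that left out a library. It was lost without both libraries of high Xist, at 0.37 with an edgeR adjusted p of 0.0563.

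Bax, the pore-forming protein of the Bcl-2 family that opens the mitochondrial outer membrane, is at chr7:45461697-45466898 on the minus strand. It had nearly the same level in both genotypes, with 18.2, 22.8 and 26.6 cpm as the lowest, median and highest WT values and 20.9, 22 and 26.6 cpm in cmGch1 KO. Its log2 fold change was 0.03 with a 95% interval from −0.20 to 0.27 (edgeR adjusted p = 0.960). Zmat3, an RNA-binding zinc finger protein, lies at chr3:32334792-32366014 on the minus strand. It ran from 9.50 through 12.5 to 15.0 cpm in WT and from 12.2 through 14.6 to 15.4 cpm in cmGch1 KO, with wide overlap (log2 fold change 0.20, 95% interval −0.05 to 0.45, edgeR adjusted p = 0.574). Trp53inp1, a stress protein that takes part in autophagy and p53 phosphorylation, is at chr4:11156431-11174379 on the plus strand. Its WT range of 9.49 to 16.6 cpm (median 11.7) overlapped the cmGch1 KO range of 11.1 to 20.5 cpm (median 15.8), with 2 cmGch1 KO libraries above every WT library. The log2 fold change of 0.39 (95% interval 0.05 to 0.73) had an edgeR adjusted p of 0.334 and an exact permutation p of 0.0736.

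The feedback genes did not pass either. Mdm2, at chr10:117688875-117710758 on the minus strand, encodes the ligase that degrades p53 and is a classical readout of p53 activity. Its values were 67.0, 73.9 and 82.8 cpm (lowest, median, highest) in WT and 70.8, 79.3 and 81.4 cpm in cmGch1 KO. All cmGch1 KO values lay inside the WT range, and the log2 fold change was 0.05 with a 95% interval from −0.09 to 0.19 (edgeR adjusted p = 0.857). Ccng1, cyclin G1, which recruits a phosphatase to Mdm2, is at chr11:40748552-40755311 on the minus strand. It was by far the most abundant of the 10, from 908 through 1100 to 1250 cpm in WT and from 948 through 1060 to 1340 cpm in cmGch1 KO. Its log2 fold change was −0.02 (95% interval −0.23 to 0.19, edgeR adjusted p = 0.981) and its sign depended on the scaling, being 0.06 when scaled by library size alone.

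Sesn1, a sestrin that limits oxidative stress and mTORC1 signalling, lies at chr10:41809935-41908424 on the plus strand. It ran from 110 through 128 to 147 cpm in WT and from 71.8 through 106 to 123 cpm in cmGch1 KO, with 3 cmGch1 KO libraries below every WT library. Its log2 fold change of −0.34 (SE 0.13, 95% interval −0.62 to −0.06) missed the threshold over all genes (edgeR adjusted p = 0.294, exact permutation p = 0.0303). The libraries of high Xist held the lowest values, 71.8 and 81.9 cpm. Without them the log2 fold change was −0.17 (edgeR adjusted p = 0.841).

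**Figure D2:**
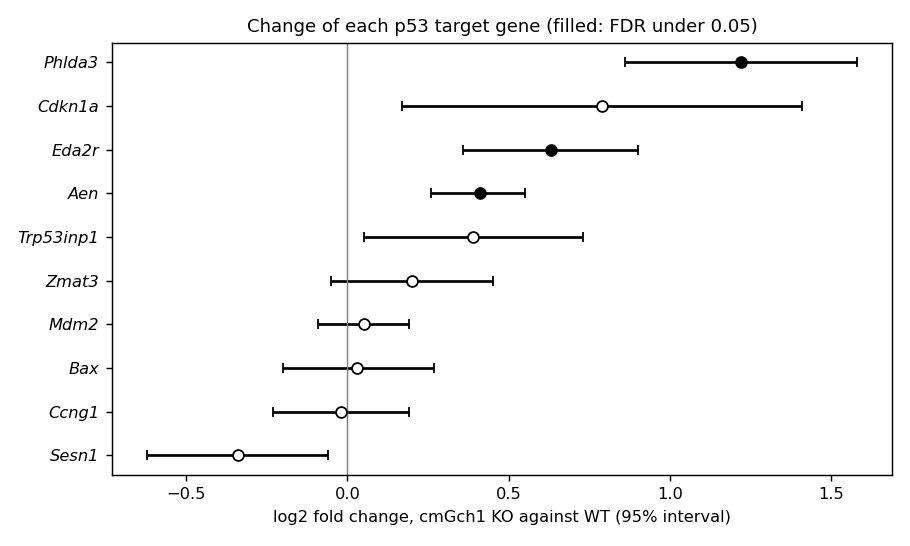
Genotype difference (log2 fold change, cmGch1 KO against WT) for each of the 10 p53 target genes, from the edgeR fit, with 95% intervals; filled points passed an FDR of 0.05. The filled points are Phlda3 at 1.22, Eda2r at 0.63 and Aen at 0.41, whereas Mdm2, Bax and Ccng1 lie within 0.05 of 0.

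Levels differed widely among the genes when divided by exon length. In WT, Ccng1 was at 313 cpm per kb, Sesn1 at 32.3, Mdm2 at 14.7, Bax at 14.3, Cdkn1a at 13.5, Phlda3 at 8.44, Aen at 7.42, Trp53inp1 at 1.88, Zmat3 at 1.08 and Eda2r at 0.754 cpm per kb. The WT ranges of neighbours overlapped from Mdm2 to Bax, Bax to Cdkn1a, Cdkn1a to Phlda3 and Phlda3 to Aen, and not elsewhere in this order. The genes that rose were thus in the lower part of the order, with Trp53inp1 and Zmat3 between Aen and Eda2r. Annotated genes overlap Bax and Sesn1 on the same strand and Cdkn1a on the opposite strand, and none of them has counts of its own in the table.

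Within a library, the levels of Phlda3, Eda2r and Aen were set against those of Mdm2, Bax and Ccng1, which lay nearest to 0. These 9 ratios do not depend on the scaling of the library. They were chosen after the values of the genes were seen, which fixed their direction, so they are a description and were not tested. The differences in mean log2 ratio ran from 0.35 to 1.21, and from 0.28 to 1.0 without the high-Xist libraries. Phlda3 over Ccng1 gave the largest difference, from −6.39 ± 0.09 to −5.18 ± 0.40, and Aen over Mdm2 the smallest, from −0.80 ± 0.09 to −0.45 ± 0.12 (SD, n = 6 each). The groups overlapped for Aen over Bax and Aen over Ccng1 and not for the other 7.

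**Figure D3:**
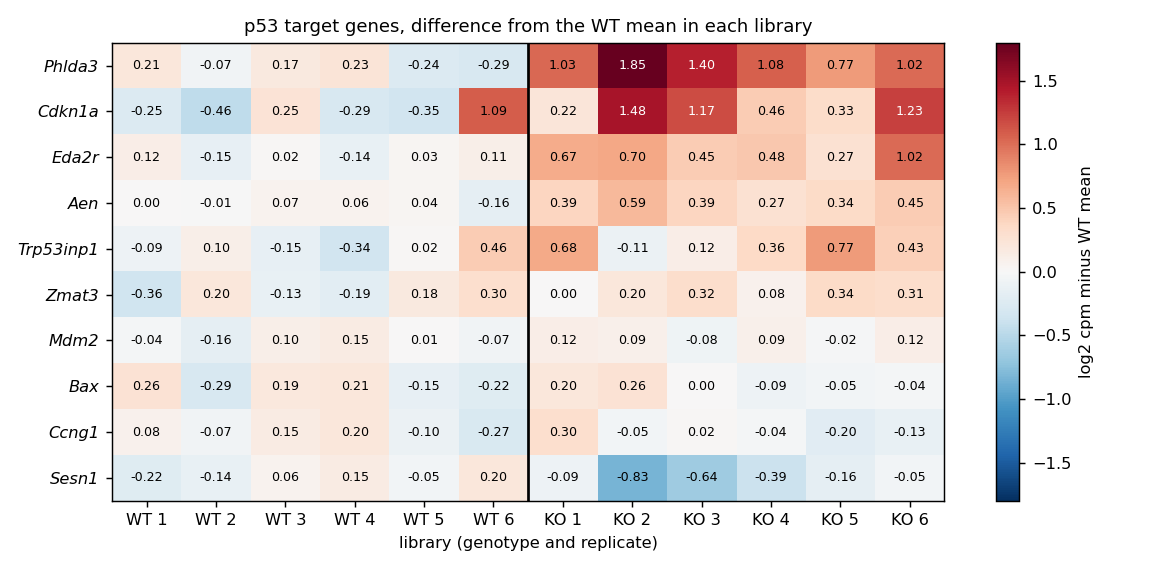
Difference of each p53 target gene from its WT mean in each of the 12 libraries, on a log2 cpm scale from −1.8 (blue) to 1.8 (red), with genes ordered by log2 fold change and a line between genotypes. Phlda3, Eda2r and Aen are above the WT mean in all 6 cmGch1 KO libraries, and Cdkn1a is high in WT replicate 6 also.

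Each cmGch1 KO library showed the rise of these genes. Averaged over Phlda3, Eda2r and Aen, the libraries lay 0.46 to 1.05 above the WT mean on the log2 scale, with replicate 5 lowest and replicate 2 highest, and WT libraries lay between −0.11 and 0.11. These averages describe genes already called and are not a separate test. Averaged over the other 7 targets, the cmGch1 KO libraries lay 0.07 to 0.27 above the WT mean and the WT libraries between −0.12 and 0.22. In 5 of the cmGch1 KO libraries 5 targets exceeded every WT library, and in replicate 4 this was 3. Phlda3, Eda2r and Aen are part of each of these counts, because their groups did not overlap. The like share over all tested genes was not computed, so the counts are a description only. With the genotype means removed, over the 45 pairs of targets the median Pearson r across 12 libraries was 0.07, and 23 pairs were above 0. The pairs ran from −0.90 for Trp53inp1 and Phlda3 to 0.72, reached both by Aen with Phlda3 and by Ccng1 with Bax, and all share the same libraries and scaling.

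The level of p53 mRNA itself was not called different. Trp53 averaged 15.0 ± 0.920 cpm (WT) and 16.7 ± 1.72 cpm (cmGch1 KO), with a log2 fold change of 0.16 (SE 0.08, edgeR adjusted p = 0.492, exact permutation p = 0.0563). Mdm4, the partner of Mdm2 that blocks p53 transactivation, was at 25.1 ± 4.83 and 23.3 ± 5.36 cpm (log2 fold change −0.10, SE 0.15, edgeR adjusted p = 0.892), and its sign turned without the high-Xist libraries, at 0.03. Of 16 tested genes that regulate p53, such as its kinases, acetylases and ligases, none was called, and none had an unadjusted p under 0.05. Their median log2 fold change was −0.05. Of the 14 tested relatives of the 10 targets, such as other cyclin G, sestrin and ectodysplasin genes, none was called either. Protein levels and p53 activity were not measured in these libraries.

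A further 59 p53 targets were listed by function, of which 47 were tested. Of these, 23 had a log2 fold change above 0 and 24 below, with a median of 0.00. Of the 47, 2 were called higher and none lower, where 0.677% and 0.445% of all tested genes were. At an unadjusted p under 0.05 there were 6 higher and 3 lower, where 7.01% and 4.51% of all tested genes were. The called genes were Gdf15 and Ephx1. Gdf15, a secreted growth differentiation factor released by stressed cells, ran from 1.08 through 1.98 to 2.68 cpm in WT and from 5.51 through 6.32 to 11.2 cpm in cmGch1 KO, with no overlap. It rose 3.84-fold (log2 1.94, SE 0.25, edgeR adjusted p = 0.00149). Every WT library was under the minimum of 3 cpm, so Gdf15 was tested only because it was high in cmGch1 KO. Each of the 10 targets exceeded that minimum in all 12 libraries. Ephx1, the microsomal epoxide hydrolase of detoxification, rose from 31.7 ± 2.66 to 44.4 ± 2.44 cpm, with no overlap (log2 0.48, SE 0.07, edgeR adjusted p = 0.00303). Both were also called without the high-Xist libraries, Gdf15 at 2.04 and Ephx1 at 0.47.

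Among 11 tested targets of cell death, 3 were above 0 and 8 below, and none was called. Bbc3, the BH3-only protein Puma, came nearest, with means of 4.17 ± 0.752 cpm for WT and 6.10 ± 0.744 cpm for cmGch1 KO, and with 5 of 6 cmGch1 KO libraries above every WT library (log2 fold change 0.54, SE 0.13, edgeR adjusted p = 0.0680). The 9 tested targets of DNA repair, among them Xpc, Polk and Pcna, lay between −0.04 and 0.17, with none called. The 13 tested metabolic targets had a median of −0.08, and Ephx1 was the only one called. Sesn2, the second sestrin, had a log2 fold change of 0.41 (edgeR adjusted p = 0.191) and thus the opposite sign to Sesn1. Pank1, a pantothenate kinase of coenzyme A synthesis, had −0.33 (adjusted p = 0.192). Of the 14 tested targets in growth and secretion Gdf15 was the only one called, and Rap2b, a small GTPase, had 0.38 (edgeR adjusted p = 0.186).

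**Figure D4:**
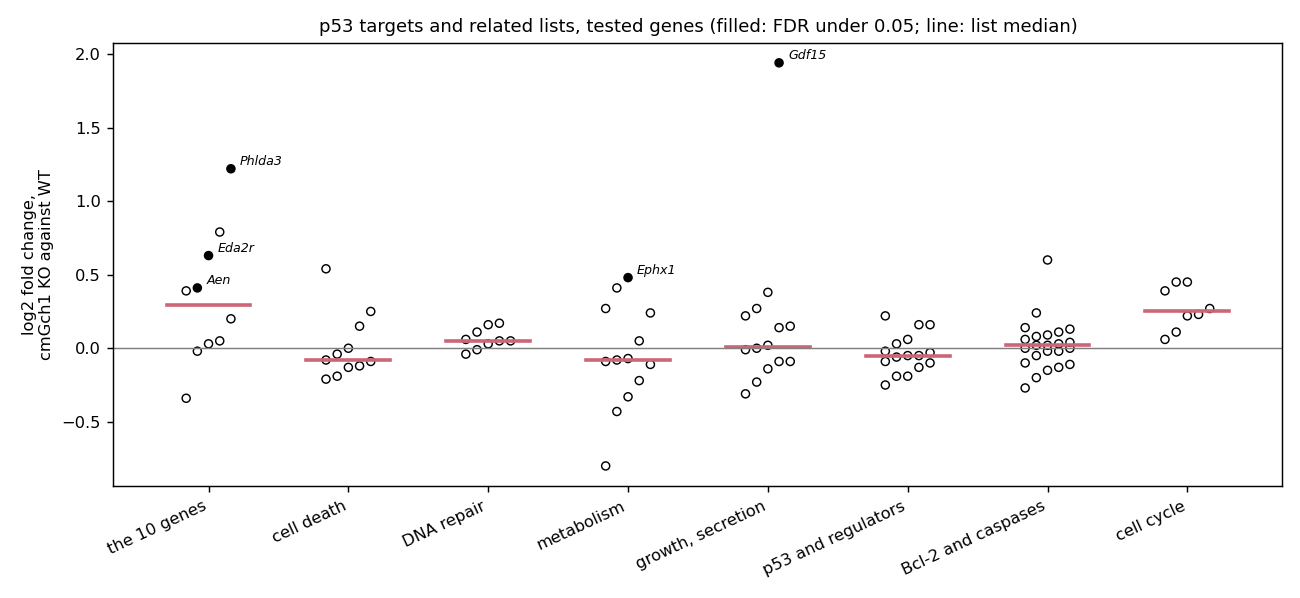
Genotype difference (log2 fold change, cmGch1 KO against WT) for the tested genes of the 10 p53 targets, of 4 lists of other targets and of related lists; each point is a gene, filled where it passed an FDR of 0.05, and the line is the median of the list. The median is 0.29 for the 10 targets, −0.08 for both cell death and metabolism, and none of the 8 tested cell cycle genes passed.

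The genes on which these targets act were listed as well. Of 28 cell cycle genes that p21 and its downstream repressor complex hold down, 8 were expressed enough to be tested, and none was called. Their log2 fold changes lay between 0.06 and 0.45, with Cenpf and Mcm5 at 0.45 and the proliferation marker Mki67 at 0.39 (edgeR adjusted p from 0.216 to 0.250). Mki67 passed the filter on low counts through the cmGch1 KO libraries, since 1 WT library exceeded 3 cpm, so its direction was favoured by the filter. Of the 20 untested genes, 16 had a higher mean in cmGch1 KO and 4 a lower one. Among 11 tested cyclins, kinases and other partners of p21 none was called, the nearest being cyclin D2 (Ccnd2), whose means were 141 ± 20.5 cpm (WT) and 193 ± 26.8 cpm (cmGch1 KO) (log2 fold change 0.46, edgeR adjusted p = 0.0675). Among 23 tested Bcl-2 family and caspase genes none was called, and the survival gene Bcl2 had a log2 fold change of 0.60 (edgeR adjusted p = 0.0735). Interferon-stimulated genes, which also respond to DNA damage, had 12 of 13 above 0, a median of 0.18 and no call.

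Gdf15 and Sesn2 are also known targets of the integrated stress response, the programme of the factor ATF4. Of 16 tested genes of that response, 2 were called higher and none lower, where 0.677% and 0.445% of all tested genes were. The log2 fold change was above 0 for 11 of the 16 and below 0 for 5, from −0.80 to 1.85 with a median of 0.08. At an unadjusted p under 0.05, 6 were higher and 1 lower, where 7.01% and 4.51% of all tested genes were. Mthfd2, a mitochondrial enzyme of folate metabolism, rose from 3.59 ± 0.640 to 13.0 ± 3.53 cpm with no overlap (log2 1.85, edgeR adjusted p = 0.000639), and by 1.70 without the high-Xist libraries (adjusted p = 0.00487). Atf5, a sister factor of ATF4, rose from 64.9 ± 5.26 to 92.0 ± 17.6 cpm (log2 0.50, edgeR adjusted p = 0.0438). The call of Atf5 was lost without the high-Xist libraries (0.33, edgeR adjusted p = 0.139) and in 9 of the 12 fits that left out a library, all but those without WT replicate 1 or cmGch1 KO replicate 1 or 6. The part of either programme in the rise of Gdf15 was not tested.

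Markers of cell types were compared for the same libraries. Cardiomyocyte markers, which define the labelled tissue, summed to 93000 to 97600 cpm in WT and 82400 to 88500 cpm in cmGch1 KO, without overlap. Of the 12 markers, 10 had a log2 fold change below 0 and none was called. At an unadjusted p under 0.05 none was lower and 1 was higher, where 4.51% and 7.01% of all tested genes were. The sum is weighted toward the most abundant markers. Macrophage markers summed to 269 to 414 cpm in WT and 350 to 489 cpm in cmGch1 KO, with 9 of 10 tested above 0, 8 of them at an unadjusted p under 0.05, and none called. Lymphocyte markers summed to 8.59 to 12 cpm in WT and 12.4 to 16.4 cpm in cmGch1 KO, and only the leukocyte gene Ptprc was expressed enough to be tested (log2 fold change 0.55, edgeR adjusted p = 0.0116, and 0.0636 without the high-Xist libraries). Fibroblast markers overlapped between genotypes (973 to 1280 against 1080 to 1360 cpm), with 9 of 10 tested above 0. Endothelial markers also overlapped (1350 to 1530 against 1310 to 1450 cpm), with 6 of 11 above 0 and 5 below. Mural markers overlapped too (1170 to 1330 against 1240 to 1320 cpm), with 6 of 9 below 0 and a median log2 fold change of −0.06. Of these, only the mural marker Acta2, smooth muscle actin, was called (log2 fold change 0.66, edgeR adjusted p = 0.00672). Without the high-Xist libraries the log2 fold change of Acta2 was 0.52 (edgeR adjusted p = 0.0390). Ptprc and Acta2 were named after their values were seen. No marker was at 0 in every library. Without the high-Xist libraries the cmGch1 KO sums were 84500 to 88500 cpm for cardiomyocyte and 12.8 to 16.4 cpm for lymphocyte markers, and the other ranges kept their overlap with WT. The part of these cell types in the rise of Phlda3, Eda2r and Aen was not tested.

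**Figure D5:**
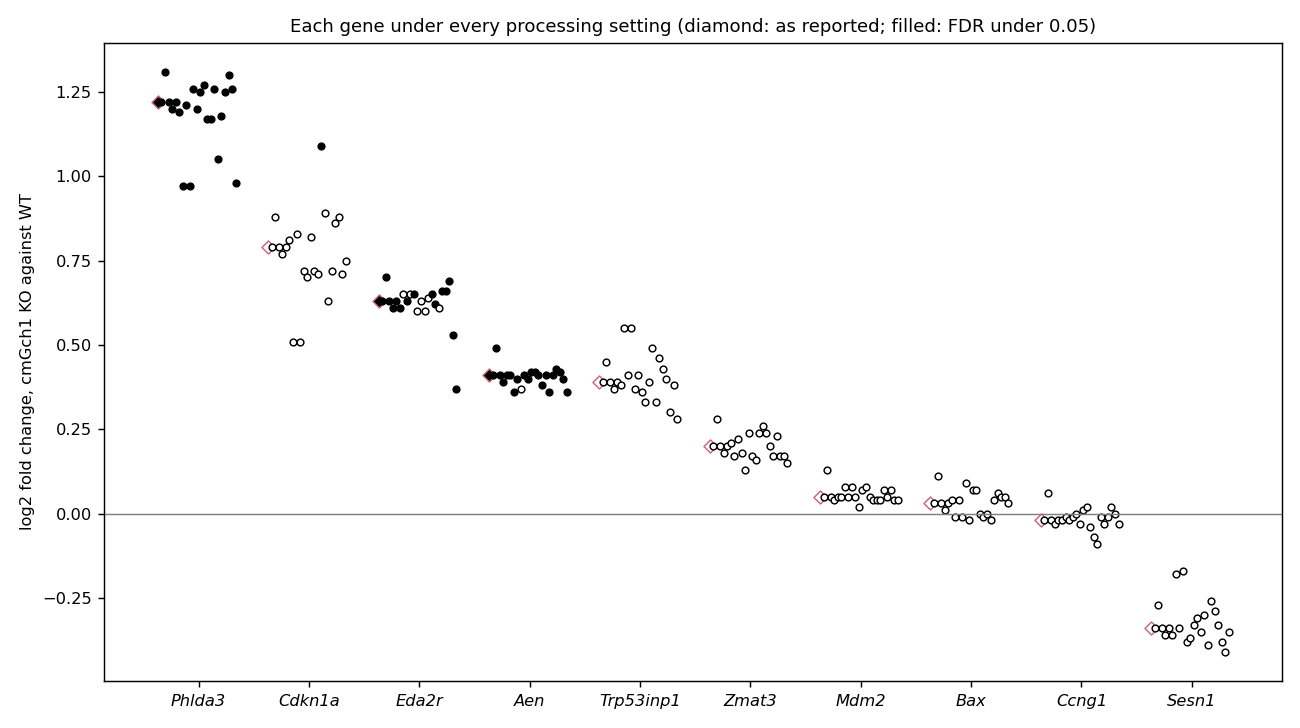
Genotype difference (log2 fold change, cmGch1 KO against WT) for each of the 10 p53 target genes under every processing setting; the diamond is the value as reported, circles are the alternatives and the fits that left out a library, and filled symbols passed an FDR of 0.05. Phlda3 is filled throughout, between 0.97 and 1.31, Eda2r and Aen are open under some settings, and Cdkn1a is filled under 1.

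The direction of Phlda3, Eda2r and Aen was the same in all 22 other fits, and Phlda3 was called in every one of them. Aen was called in 21 of these, with a log2 fold change from 0.36 to 0.49. Eda2r was called in 15 and ran from 0.37 to 0.70, its lowest value coming from the deposited normalized values. Of the other targets Cdkn1a was called in 1 fit, and Mdm2, Bax, Ccng1, Zmat3, Trp53inp1 and Sesn1 in none.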

How the data were processed

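RNA-seq libraries of left ventricle from 6 WT and 6 cmGch1 KO mice, defined by the labels, were compared, and the experimental unit was a single animal. The authors prepared dUTP-stranded paired-end libraries, and HISAT2, SAMtools and GRCm38 are named in the submitters' processing notes. Annotation and strand setting were not given in the sources used here. The authors deposited raw counts per Ensembl gene and normalized values on a log2-like scale, whose tool is not stated. Symbols and positions came from GENCODE M21.

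Counts were tested with edgeR 4.0.16 in R 4.3.3: TMM scaling, a minimum of 3 cpm in at least 6 libraries, the quasi-likelihood test of genotype with no covariate, and Benjamini-Hochberg adjustment over all 11225 tested genes (FDR 0.05). Single values were also compared by a two-sided exact permutation test over all 924 divisions of the libraries. Intervals are 95% intervals of the fit. P-values weigh the difference between genotypes against the spread between these samples. Steps were tested on simulated data.

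Alternatives were the size factors and Wald test of DESeq2 1.42.0, library size alone, no filter, cpm over 3 in all libraries, a replicate block, a sex-linked covariate, 1 surrogate variable (sva 3.50.0), leaving out each library or the high-Xist libraries, and limma 3.58.1 on the deposited log2 values. The same alternatives for Gch1, Mthfd2, Atf5, Ptprc and Acta2, and the ratios and marker sums without the high-Xist libraries, were added after seeing the data. The 10 genes, the lists, the tests and the alternatives were chosen with earlier results of these data known. Genes named are the 10 targets, Gch1, Trp53, Mdm4, Eda, Edar and Edaradd, list genes with an FDR under 0.05, up to 4 per list with the smallest p beyond those, and the 5 genes that vary most like the targets. Ccna2 was named as an example of low counts. Promoter windows were RefSeq's, since no genome sequence was used.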

Additional observations from a re-analysis of the deposited data

Results flagged for a closer look

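Among 30 groups of 6 values, 1 library stood apart from the rest of its group in 2, both times WT replicate 6, by Dixon's criterion (the gap to the nearest library, relative to the whole range). Chance gives such a gap in about 1 of 20 groups. For Cdkn1a this library was at 94.5 cpm, with the next highest WT library at 52.8 cpm, a gap of 0.671 of the range. For Aen it was at 38.5 cpm, with the next lowest WT library at 42.6 cpm, a gap of 0.633 of the range.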

How the results depend on the processing

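The number of targets called higher was 3 as reported, 2 to 4 when a library was left out, 2 with the sex-linked covariate and 1, Phlda3, without the high-Xist libraries. None was called lower under any setting. Other p53 targets called higher numbered 2 as reported, 4 with DESeq2, 1 with cpm over 3 in all libraries, which left Gdf15 untested, and 5 with 1 surrogate variable. The number called lower was 0 as reported, 1 with 1 surrogate variable and 0 to 1 when a library was left out (1 without cmGch1 KO replicate 1).

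Over all tested genes, 76 were called higher and 50 lower. The counts were 116 and 36 by library size alone, which moved the median of all genes to 0.07, 218 and 155 with DESeq2, 38 and 24 with the sex-linked covariate, 302 and 334 with 1 surrogate variable, and 20 and 18 without the high-Xist libraries. When a library was left out they ran from 45 to 116 higher and from 30 to 97 lower (the lowest without WT replicate 3, the highest without cmGch1 KO replicate 1). With a replicate block they were 112 higher and 76 lower, with 3 targets called higher, and the block changed no call among the 10 genes. With the genotype means removed, same-numbered libraries correlated at 0.676, 0.401 and 0.509 for replicates 1, 5 and 6. For replicates 2, 3 and 4 the values were −0.095, −0.078 and −0.128. Of the 6 WT libraries, 3 correlated best with their own number. The picture was thus mixed, and the numbers were not taken to pair the samples.

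The sign of genes that were not called turned for Ccng1 with library size alone (0.06) and when a library was left out (−0.09 to 0.02), for Bax with the sex-linked covariate (−0.01), without the high-Xist libraries (−0.01) and when a library was left out (−0.02 to 0.09), and for Mdm4 with the sex-linked covariate (0.02) and without the high-Xist libraries (0.03). The cause of these shifts was not tested. The cmGch1 KO group has 4 libraries without those of high Xist. Eda2r had 104 to 326 counts per library.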

Other observations

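The genes whose level followed the mean of the 10 targets most closely from library to library, with the genotype means removed, were Mapkapk3 (Pearson r 0.886, Spearman rho 0.902), Rhog (0.867 and 0.846), Tinagl1 (0.864 and 0.902), Gm49342 (0.857 and 0.902) and Ifrd1 (0.850 and 0.874), over 12 libraries. They are the top of a ranking of all tested genes, and no test was made of it. Without the 2 libraries farthest from the median, r was between 0.803 and 0.928. None of these genes differed between genotypes by the threshold, with log2 fold changes from −0.17 to 0.15 and edgeR adjusted p from 0.540 to 0.956.

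Among the other p53 targets with a RefSeq promoter window, 2 of 47 held a full p53 site and 11 held a single decamer. Of all protein-coding genes with a window, 0.154% and 8.54% did. The 47 with a window are not the same set as the 47 tested targets, since a gene with a window need not have been tested.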
